A study of Anolis sagrei with 10 samples.

Results

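Markers of the limb ectoderm and of its apical ridge were examined in forelimb and hindlimb buds of the brown anole, Anolis sagrei, a lizard. The set was defined by gene symbol: TP63, SP6, SP8, SP9, EPCAM, CDH1, GRHL2, GRHL3, ESRP1 and TFAP2A. Symbols were read in capitals from the authors' deposited comparison table and joined to the count tables by gene identifier. Of the 10 symbols, 9 matched a single identifier each, among 25920 identifiers in all, and each of these 9 passed the filter on low counts that kept 15595 genes. No identifier was matched to SP8, which was not analysed here.

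The data were RNA sequencing libraries from wild type embryos at stage 7, 5 from forelimb buds and 5 from hindlimb buds. Both limbs carry the replicate numbers 1 to 5, and libraries of the same number were taken as pairs. No treatment or allele sets any library apart. The comparison asks whether genes of the ectoderm differ in level between the buds of the 2 limbs. Limbs were compared within replicate numbers, that is, with the number as a block in the fit. Nothing in the labels says how many embryos a library holds or that the numbers stand for separate embryos. The p-values of the fit with the block thus measure the spread left between these libraries once the replicate number is fitted.

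The limb bud is a core of mesenchyme under a sheet of surface ectoderm, and the ectoderm at its distal margin thickens into the apical ectodermal ridge. The ridge secretes FGF proteins that keep the mesenchyme growing and being patterned, and the mesenchyme in turn maintains the ridge. In mouse and chick, TP63 sets up the surface epithelium from which the ridge forms, SP transcription factors act inside the ridge upstream of FGF8, and grainyhead-like and AP-2 factors regulate genes of surface ectoderm more widely. EPCAM and CDH1 are adhesion proteins at the surface of epithelial cells, and ESRP1 sets the epithelial pattern of splicing.

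Total counts per library ran from 41808148 to 54998469, and hindlimb replicate 4 had the fewest identifiers with a count, 17132 against up to 19611 in forelimb replicate 4. The limb labels matched the limb-type regulators: TBX5 averaged 479 CPM (read counts scaled to a common library total with TMM factors) in forelimb and 1.82 CPM in hindlimb, while PITX1 averaged 0.311 CPM in forelimb, against 36.2 CPM in hindlimb. Levels are compared between libraries within a gene and not between genes, because transcript lengths were not used. A bud is a mixture of tissues, so a lower level can mean fewer ectoderm cells or less RNA per ectoderm cell, and these cannot be told apart here.

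None of the 9 markers passed the threshold of 0.05 on the adjusted p for a difference between forelimb and hindlimb (edgeR with replicate block, quasi-likelihood, Benjamini-Hochberg over 15595 genes), where 1.33% of all tested genes did. TFAP2A alone had an unadjusted p under 0.05, and 13.8% of all tested genes had one. Fitted log2 fold changes, forelimb over hindlimb, lay between 0.03 for CDH1 and 0.28 for SP9. In no marker did the 5 libraries of a limb lie apart from the 5 of the other, which they did with forelimb above in 0.616% and with hindlimb above in 0.571% of all tested genes. DESeq2 and limma voom with the block, and edgeR without it, also called 0 markers, with 1, 1 and 0 of them at an unadjusted p under 0.05. In that order, these fits called 545, 271 and 31 of the 15595 genes, and 2223, 2213 and 616 had an unadjusted p under 0.05. With so few genes called without the block, a call of 0 markers there says little. DESeq2 gave SP9 no adjusted p, so SP9 could not be called in that fit.

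**Figure D1:**
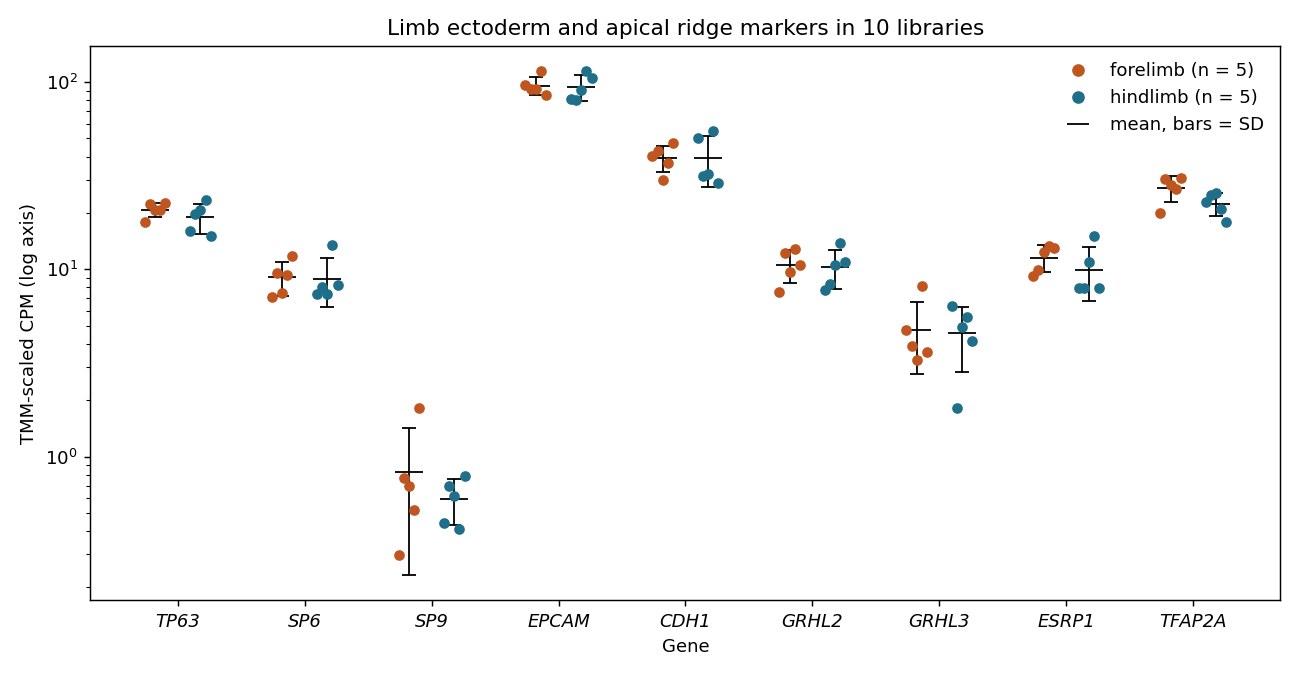
TMM-scaled CPM on a log axis for each of the 9 markers in 5 forelimb and 5 hindlimb libraries, with points ordered by replicate number and the mean with its SD; heights of different genes are not comparable. The limbs overlap in all 9 genes, and SP9 and GRHL3 are spread more widely than the others.

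The intervals bound how large a limb difference these libraries leave room for. In the edgeR fit with the block, the 95% interval of the fold change stayed within 1.5-fold either way for 7 of the 9 markers. It reached beyond that for SP9 and GRHL3. The narrowest interval belonged to EPCAM, whose log2 fold change of 0.03 ± 0.08 (SE) had bounds of -0.14 and 0.21, which is 0.908-fold to 1.15-fold. The widest belonged to SP9, with bounds of -0.75 and 1.31, or 0.595-fold to 2.48-fold. SP9 had only 13 to 83 counts per library, and every other marker had at least 78. These bounds hold for that fit, and intervals of the alternative fits are not given here. Without the block, ESRP1 was at 0.21 ± 0.21 (SE) on the log2 scale. With number 1 left out, TFAP2A was at 0.40 ± 0.12 (SE).

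**Figure D2:**
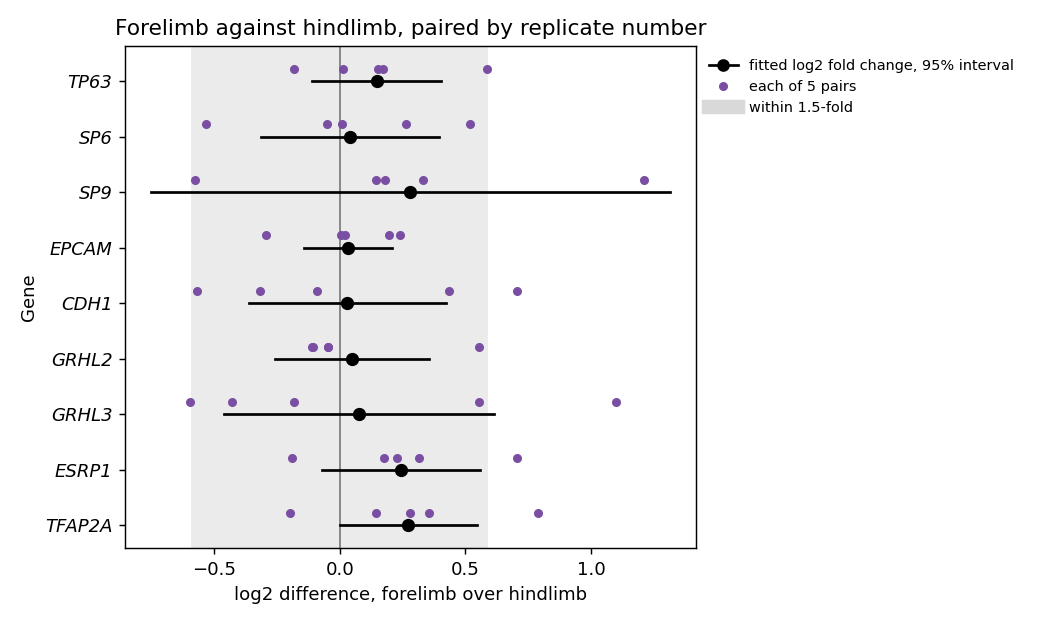
Log2 difference, forelimb over hindlimb, for each marker: the fitted fold change with its 95% interval (black) and the difference in each of the 5 pairs (purple), with the grey band marking changes under 1.5-fold. For 8 of the 9 genes the interval spans 0, for TFAP2A its lower bound lies just above 0, and the pairs of every gene lie on both sides of 0.

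TP63 encodes the p53-related factor on which stratified epithelia and the ridge depend. Its levels in forelimb replicates 1 to 5 were 17.9, 22.2, 20.8, 20.7 and 22.5 CPM, against 16.1, 19.7, 20.6, 23.5 and 15.0 CPM in hindlimb replicates 1 to 5. The forelimb libraries were close together, whereas the hindlimb libraries held both the highest and the lowest value of all 10. TP63 was higher in forelimb in 4 of 5 pairs, with a log2 fold change of 0.15 ± 0.12 (SE) and an edgeR adjusted p of 0.639.

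SP6 encodes a zinc finger factor of the ridge and of tooth and hair epithelium in mouse. It was at 7.08, 9.60, 7.47, 9.37 and 11.8 CPM in forelimb replicates 1 to 5, against 7.34, 8.005, 7.42, 13.5 and 8.22 CPM in hindlimb replicates 1 to 5. Forelimb libraries were spread from 7.08 to 11.8 CPM. Hindlimb libraries lay at 7.34 to 8.22 CPM except number 4, which lay above every other library of both limbs. The fitted difference on the log2 scale was 0.04 ± 0.16 (SE; edgeR adjusted p 0.941).

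SP9, the other zinc finger factor of the ridge with counts here, had the lowest counts of the set. Its forelimb libraries 1 to 5 were at 0.298, 0.772, 0.700, 0.518 and 1.83 CPM, and its hindlimb libraries 1 to 5 at 0.444, 0.698, 0.617, 0.411 and 0.790 CPM. Forelimb replicates 1 and 5 were the lowest and highest of all 10 libraries, 6.13-fold apart, and the hindlimb libraries fell between them. The log2 fold change of 0.28 ± 0.48 (SE; edgeR adjusted p 0.857) was the largest in the set and the least precise.

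FGF8, the ridge's main growth signal and not a member of the set, was present in every library, at 19.1, 17.9, 14.0, 18.9 and 12.8 CPM in forelimb replicates 1 to 5 and at 21.3, 13.6, 13.3, 28.6 and 7.49 CPM in hindlimb replicates 1 to 5. Like SP6 and TP63, it reached its highest level in hindlimb replicate 4. Of 28 tested ridge and ectoderm signal genes, FGF8 among them, 10 were highest there and 5 were lowest there. Over all tested genes these shares were 21.3% and 21.8%. The fitted difference of FGF8 on the log2 scale was 0.09 ± 0.17 (SE; edgeR adjusted p 0.868).

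EPCAM, a surface glycoprotein of epithelial cells, was the marker with the smallest relative range, 1.43-fold between the highest and the lowest of the 10 libraries. It was at 96.4, 91.4, 91.7, 114 and 85.3 CPM in forelimb replicates 1 to 5, against 81.5, 79.8, 90.4, 114 and 105 CPM in hindlimb replicates 1 to 5. Number 4 was the highest library in both limbs. EPCAM was higher in forelimb in 4 of 5 pairs, and the exception, number 5, was the largest of its pair differences, at 0.816-fold.

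CDH1 encodes E-cadherin, which joins epithelial cells at adherens junctions. Its forelimb libraries 1 to 5 were at 40.2, 42.8, 30.2, 36.8 and 47.1 CPM, and its hindlimb libraries at 50.05, 31.6, 32.1, 54.5 and 28.9 CPM. The hindlimb values formed a higher pair, numbers 1 and 4, and a lower group of 3, while the forelimb values lay mostly in the gap between them. The mean was 39.4 CPM ± 6.40 in forelimb and 39.4 CPM ± 11.9 in hindlimb (SD, n = 5 each). The fitted log2 fold change was 0.03 ± 0.17 (SE; edgeR adjusted p 0.959).

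Within pairs, CDH1 did not follow a single direction. It was 0.675-fold in forelimb relative to hindlimb in number 4 and 1.63-fold in number 5. EPCAM in those same pairs was 1.003-fold and 0.816-fold, so these adhesion genes moved apart in the pair where CDH1 was most forelimb-biased.

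GRHL2 and GRHL3 encode grainyhead-like factors of surface epithelium, required in mouse for neural tube closure and, for GRHL3, for the skin barrier. GRHL2 was at 7.52, 12.3, 9.73, 12.8 and 10.5 CPM in forelimb replicates 1 to 5 and at 7.76, 8.35, 10.5, 13.8 and 10.9 CPM in hindlimb replicates 1 to 5. GRHL2 was higher in forelimb in only 1 of 5 pairs, number 2, at 1.47-fold, and in the other 4 pairs it was 0.928-fold to 0.969-fold. That 1 pair carries its positive log2 fold change of 0.05 ± 0.14 (SE; edgeR adjusted p 0.919), which was -0.07 without number 2.

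GRHL3 varied more. It was at 4.75, 3.88, 3.27, 8.13 and 3.63 CPM in forelimb replicates 1 to 5, against 6.38, 1.82, 4.93, 5.55 and 4.12 CPM in hindlimb replicates 1 to 5. The highest of all 10 libraries was forelimb replicate 4 and the lowest hindlimb replicate 2, which were 4.48-fold apart. Its pairs ran from 0.662-fold in number 3 to 2.14-fold in number 2, and the log2 fold change was 0.08 ± 0.25 (SE; edgeR adjusted p 0.926).

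ESRP1 encodes an RNA-binding protein that directs epithelial splicing, including the choice of the epithelial form of FGFR2, the receptor through which limb ectoderm receives FGF10. It was at 9.24, 9.87, 12.3, 13.3 and 13.0 CPM in forelimb replicates 1 to 5. In hindlimb replicates 1 to 5 it was at 7.90, 7.93, 10.9, 15.1 and 7.98 CPM. Of the hindlimb libraries 3 lay below every forelimb library, and number 4 lay above every forelimb library. ESRP1 was higher in forelimb in the other 4 pairs. The log2 fold change of 0.24 ± 0.15 (SE) had an edgeR adjusted p of 0.492, and without number 4 it was 0.36 with an edgeR adjusted p of 0.490.

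TFAP2A encodes AP-2 alpha, a factor of surface ectoderm and also of neural crest. It was at 19.9, 30.2, 28.2, 27.0 and 30.7 CPM in forelimb replicates 1 to 5 and at 22.9, 24.9, 25.5, 21.1 and 17.8 CPM in hindlimb replicates 1 to 5. All forelimb libraries but number 1 lay above every hindlimb library, and forelimb replicate 1 lay among the lowest values. TFAP2A was higher in forelimb in 4 of 5 pairs, 1.10-fold to 1.73-fold, and in number 1 it was 0.872-fold.

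The log2 fold change of TFAP2A was 0.27 ± 0.13 (SE), with an unadjusted edgeR p of 0.0485 and an adjusted p of 0.358. Without number 1 it was 0.40, with an edgeR adjusted p of 0.0939. That was the lowest adjusted p of any marker under any of the 21 alternatives, in which TFAP2A ran from 0.0939 to 1. Neural crest cells can also carry TFAP2A. All 6 tested neural crest and glia genes had a fitted log2 fold change above 0, as did 50% of all tested genes. Their median was 0.13. TFAP2E, at 0.83, was the 1 of them called, where 1.33% of all tested genes were. SOX10, which marks crest cells and glia, was at 24.8, 25.95, 34.2, 19.5 and 27.6 CPM in forelimb replicates 1 to 5, against 36.8, 29.9, 27.8, 7.19 and 32.7 CPM in hindlimb replicates 1 to 5, and its log2 fold change was 0.12 ± 0.27 (SE; edgeR adjusted p 0.899). SOX10 was higher in forelimb in 2 pairs and in hindlimb in 3. Its low value in hindlimb replicate 4 stood apart from the other 9 libraries. The part of neural crest in the TFAP2A levels was not tested.

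The fitted log2 fold change was above 0 for all 9 markers, as it was for 50% of all tested genes, and their median was 0.08. This direction was not stable: without number 2 it was above 0 for 4 of the 9, with values from -0.16 to 0.32. Without number 3 it was above 0 for all 9. In fits without the block, it was above 0 for all 9 with hindlimb replicate 4 left out, from 0.11 to 0.41. With hindlimb replicate 2 left out instead, it was above 0 for 4. Number 2 was the pair in which all 9 markers were higher in forelimb, at a median log2 difference of 0.28. In number 5 they were higher in forelimb for 6 of 9, with a median of 0.59, in number 3 for 6, in number 4 for 4 and in number 1 for 3. No marker was higher in the same limb in all 5 pairs, which 7.78% of all tested genes were in forelimb and 7.04% in hindlimb. The authors' deposited table gave log2 fold changes from -0.00022 for CDH1 to 0.22 for TFAP2A, and an adjusted p of 0.99996 for each of the 9. Those values come from a different fit, in which the SE of SP9 was 0.13, against 0.48 here. Their sizes are therefore not directly comparable with those of the blocked fit.

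Much of the variation lay between libraries of the same limb. Hindlimb replicate 4 was the highest of all 10 libraries for TP63, SP6, CDH1, GRHL2 and ESRP1, 5 of the 9 markers, where it was the highest for 21.3% of all tested genes. The median marker stood 0.35 above its own mean over the 10 libraries there, on the log2 scale. SP9 and TFAP2A did not share this rise, and in hindlimb replicate 4 SP9 had the lowest of its 5 hindlimb values. At the low end, the median marker stood at -0.26 in hindlimb replicate 1, -0.24 in hindlimb replicate 2 and -0.18 in forelimb replicate 1. Forelimb replicate 1 was the lowest forelimb library for 6 of the 9 markers. That library also stood apart in red blood cell genes: ALAS2, a heme synthesis enzyme, was at 59.97 CPM there and at 2.25 to 9.21 CPM in the other 9 libraries. The 7 blood genes with counts summed to 148 CPM in it, the upper end of a range that began at 15.3 CPM in forelimb and ran from 8.40 to 28.0 CPM in hindlimb. Without number 1 no marker was called, and their log2 fold changes ran from -0.01 to 0.48. The part of blood in the marker levels was not tested.

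**Figure D3:**
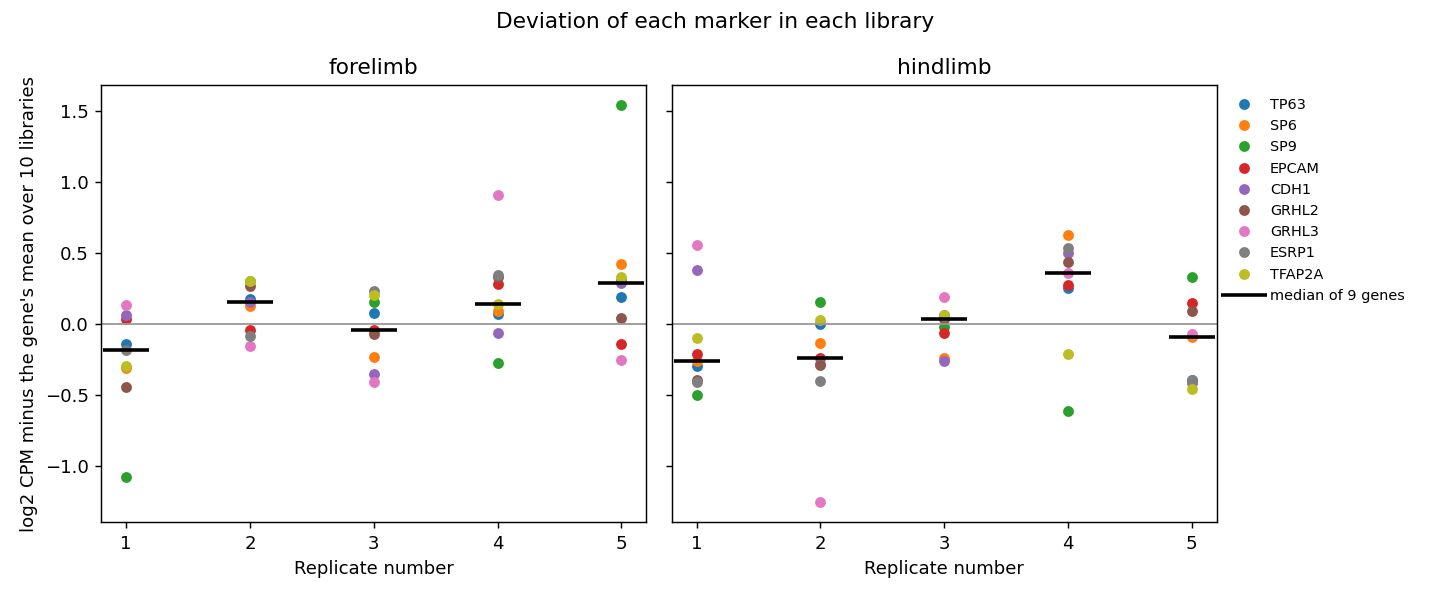
Log2 CPM of each marker minus its mean over the 10 libraries, by replicate number, in forelimb (left) and hindlimb (right), with the median of the 9 genes as a black bar. The bar is highest in hindlimb replicate 4, at 0.35, and lowest in hindlimb replicate 1, at -0.26, while SP9 and GRHL3 leave the rest in several libraries.

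Genes of other tissues also moved in hindlimb replicate 4. Of 12 tested mesenchyme markers 7 had their lowest value of all 10 libraries there, as did 4 of 5 endothelial markers, against 21.8% of all tested genes. Among epithelial lists read below, 6 of 10 junction and adhesion genes and 9 of 17 regulators and proteases were highest there. Of 12 keratins and basement membrane genes 1 was highest there, against 21.3% of all tested genes. The part of tissue composition in the marker levels was not tested. Without number 4 no marker was called either, and their log2 fold changes ran from -0.05 to 0.36.

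The markers were less variable in forelimb than in hindlimb for 6 of the 9, with a median coefficient of variation of 16.2% in forelimb and 27.5% in hindlimb. Over all tested genes the median was 19.1% in forelimb and 22.5% in hindlimb. SP9 was the widest exception, at 71.7% in forelimb and 27.5% in hindlimb, and GRHL3 and TFAP2A were also more variable in forelimb. In each of the 6 markers more variable in hindlimb, hindlimb replicate 4 was the highest hindlimb library. The part of that library in the hindlimb coefficients was not tested.

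TP63, SP6, GRHL2 and ESRP1 tracked the rest of the set across libraries more closely than the other markers did. Genes outside the set were not put through the step described next, so how common such narrowing is was not tested. Subtracting the median deviation of the other 8 markers narrowed the SD of log2 CPM over the 10 libraries to 0.20 for SP6, against 0.32 before, and to 0.22 for ESRP1, against 0.35 before. For GRHL2 it became 0.20, against 0.30 before, and for TP63 0.17, against 0.21 before. SP9 was the remaining gene of the 5 with a smaller SD, by under 0.01. For EPCAM, CDH1, GRHL3 and TFAP2A the SD was larger after this step, so they tracked the set less closely. With number 1, 3, 4 or 5 left out, the SD became smaller for 6 of the 9 markers. It did so for 5 with number 2 left out, as with all libraries.

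Among 9471 other tested genes with a symbol and a mean of at least 1 CPM, the 5 whose profile over the 10 libraries lay nearest to the mean profile of the markers were COL17A1, RAC3, DSP, MNAT1 and MRM2. Likeness was measured as the root mean square difference of z-scores of log2 CPM, which was 0.41 for COL17A1 and 0.45 for DSP, against 0.48 for the closest member, ESRP1, which itself enters that mean. COL17A1 encodes a collagen of hemidesmosomes, which anchor basal epithelial cells, and DSP encodes desmoplakin of the desmosomes, which join epithelial cells. RAC3 encodes a small GTPase of the cytoskeleton, MNAT1 a subunit of the CDK-activating kinase and MRM2 a mitochondrial rRNA methyltransferase.

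COL17A1 was at 110, 167, 162, 239 and 188 CPM in forelimb replicates 1 to 5, against 116, 131, 166, 223 and 136 CPM in hindlimb replicates 1 to 5. It was thus lowest in number 1 and highest in number 4 in both limbs. When each replicate number was left out in turn, COL17A1 stayed between places 2 and 14 of the 9471, DSP between 5 and 24, RAC3 between 1 and 25, MRM2 between 11 and 36 and MNAT1 between 8 and 66.

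Other genes tied to limb ectoderm were read from lists of junction and adhesion genes, keratins and basement membrane genes, epithelial regulators and proteases, and signals of the ridge and ectoderm. In that order, 10 of 21, 12 of 19, 17 of 20 and 28 of 29 symbols had an identifier, and KRT5 and KRT14 did not. The lists were made by gene symbol, and which tissue of the bud each RNA came from was not tested. Of 39 tested genes on the first 3 lists, 1 passed the threshold with forelimb higher and 1 with hindlimb higher, where 0.705% and 0.628% of all tested genes did so. Their median log2 fold change was 0.03, beside 0.00 over all tested genes. Both called genes are on the list of keratins and basement membrane genes, and which tissue makes their RNA was not tested.

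FREM1, an extracellular protein at the junction of ectoderm and mesenchyme that is mutated in mouse blebbing disorders, was at 86.7, 83.9, 73.8, 66.7 and 76.2 CPM in forelimb replicates 1 to 5. In hindlimb replicates 1 to 5 it was at 56.2, 67.8, 57.3, 56.3 and 58.7 CPM. Forelimb was higher in all 5 pairs, and only forelimb replicate 4 lay below any hindlimb library. FREM1 thus rose by 0.38 ± 0.07 on the log2 scale (SE; edgeR adjusted p 0.0231). The call was lost without the block (0.331) and without number 2 or number 3, and over the fits that left out a pair the adjusted p ran from 0.0352 to 0.127.

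LAMA3, the alpha chain of the laminin that holds epithelia to their basement membrane, was at 26.02, 18.2, 23.7, 22.8 and 19.2 CPM in forelimb replicates 1 to 5, against 30.7, 26.1, 35.9, 31.2 and 26.2 CPM in hindlimb replicates 1 to 5. It was lower in forelimb in all 5 pairs, with a log2 fold change of -0.45 ± 0.09 (SE) and an edgeR adjusted p of 0.0349. The call held when number 1 was left out (0.0159) and was lost when any of numbers 2 to 5 was left out, with an adjusted p up to 0.212. It was also lost with counts scaled by library totals alone (0.0522) and without the block (0.608).

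None of the 10 tested junction and adhesion genes was called, and their log2 fold changes ran from -0.80 for CLDN3 to 0.34 for PKP1. None of the 17 tested regulators and proteases was called, from -0.34 for PRSS8 to 0.60 for KLF4, a factor of differentiating epidermis whose edgeR adjusted p was 0.118. Of the 39 genes, 6 had an unadjusted p under 0.05 with forelimb higher and 2 with hindlimb higher, where 7.44% and 6.35% of all tested genes had one.

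Relatives of the markers, singled out after their values were seen, gave GRHL1 at a log2 fold change of 0.09 ± 0.15 (SE), ESRP2 at 0.09 ± 0.10, TFAP2C at 0.12 ± 0.07 and TFAP2B at -0.21 ± 0.11, with edgeR adjusted p of 0.858, 0.756, 0.530 and 0.429. TFAP2E, a relative of TFAP2A read from the neural crest list, was the exception. It was at 18.5, 13.7, 23.9, 22.6 and 16.4 CPM in forelimb replicates 1 to 5 and at 12.01, 8.17, 15.0, 9.96 and 8.67 CPM in hindlimb replicates 1 to 5. Forelimb was higher in all 5 pairs. Its log2 fold change of 0.83 ± 0.12 (SE) had an edgeR adjusted p of 0.00423, which stayed at or below 0.0294 when any pair was left out and was 0.271 without the block.

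None of the 28 tested ridge and ectoderm signal genes was called, and how much of their RNA came from ectoderm was not tested. Their median log2 fold change was 0.07, and they ran from -0.63 for WNT10A, a WNT ligand of ectoderm with an edgeR adjusted p of 0.0919, to 0.43 for EN1, a factor of ventral ectoderm with an adjusted p of 0.418. At an unadjusted p under 0.05 there were 3 genes with forelimb higher and 4 with hindlimb higher, where 7.44% and 6.35% of all tested genes had one. In all 5 pairs 4 were higher in forelimb and 6 in hindlimb, where 7.78% and 7.04% of all tested genes were. WNT3 had every forelimb library above every hindlimb library and WNT10A the reverse, as had 0.616% and 0.571% of all tested genes. The smallest edgeR adjusted p of the list, 0.0648, was that of BMP2, with hindlimb higher.

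**Figure D4:**
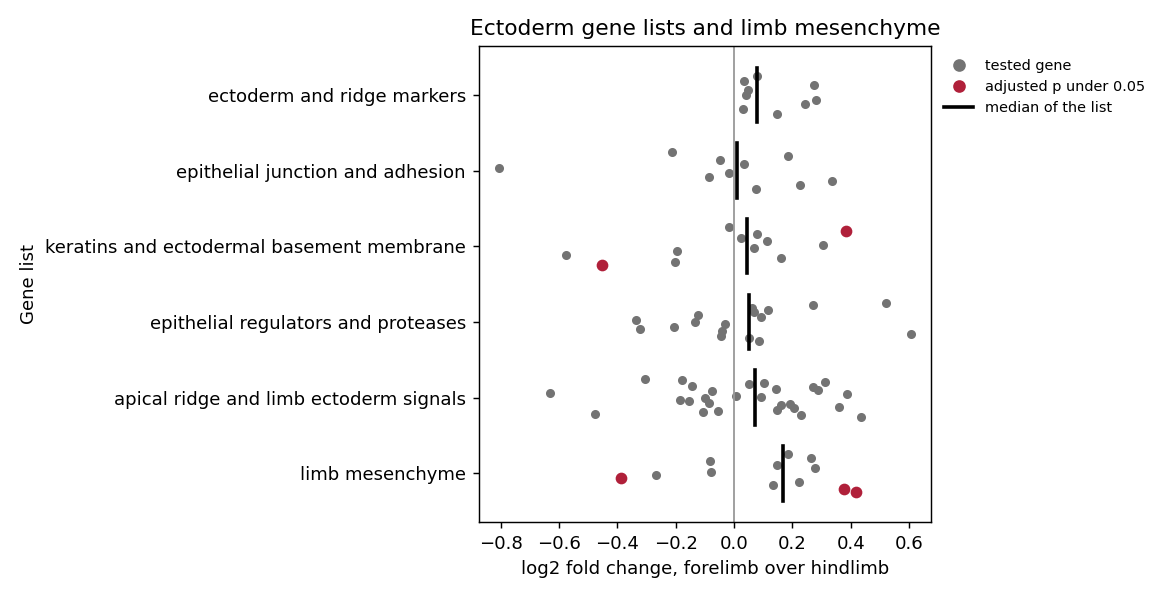
Log2 fold change, forelimb over hindlimb, of each tested gene of the markers, of 4 lists read for limb ectoderm and of a mesenchyme list, with called genes in red and the list's median as a black bar. Medians of the markers and of those 4 lists lie between 0.01 and 0.08. The called genes of those lists, FREM1 and LAMA3, lie on opposite sides of 0.

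Other tissues of the bud were read from marker lists, on each of which some symbols had no identifier. Of 12 tested mesenchyme markers, VIM (0.38, edgeR adjusted p 0.00669) and COL1A1 (0.42, 0.0170) were higher in forelimb and CDH2 (-0.39, 0.0218) was lower, with a list median of 0.17. Without the block none of these 3 was called. Over all tested genes, 1.33% were called with the block and 0.199% without it. VIM lost its call without number 2 (0.0644), COL1A1 without number 2, 3 or 4 (up to 0.105) and CDH2 without number 2, 3 or 5 (up to 0.142) and under scaling by library totals alone (0.0559). The 12 mesenchyme markers together summed to 5109 to 6625 CPM in forelimb libraries and 3981 to 5793 CPM in hindlimb libraries. The lowest of these sums was that of hindlimb replicate 4, and every other hindlimb sum lay within the forelimb range.

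Endoderm is another epithelium that carries EPCAM, CDH1 and GRHL2, and its 5 markers with counts summed to 1.01 to 2.48 CPM in forelimb libraries and 1.09 to 1.96 CPM in hindlimb libraries, each of them averaging under 1 CPM. The 3 tested among them ran from -0.00 for FOXA1 to 0.21 for CDH17, and none was called. Of 9 symbols on the endoderm list, 5 had an identifier. The part of endoderm in the levels of EPCAM, CDH1 and GRHL2 was not tested. Of 2 tested genes on the list for mesonephros and coelomic epithelium, EMX2 was higher in forelimb (0.59, edgeR adjusted p 0.00554). PAX2 and MSLN of that list did not pass the filter on low counts, at no more than 0.411 CPM and 0.616 CPM in any library. Which tissue of the bud the EMX2 RNA came from was not tested. WT1 was lower in forelimb (-2.05, 0.0414), at 0.549 CPM in forelimb, against 1.84 CPM in hindlimb. Leaving out number 2 ended the call of EMX2 (0.0555), leaving out any of numbers 2 to 5 that of WT1 (up to 0.177), and fitting without the block both. The call of WT1 was also lost with the block under limma voom (0.0621) and under scaling by library totals alone (0.0569).

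For the remaining tissues no gene other than TFAP2E was called among 5 tested endothelial, 6 blood, 7 myoblast, 6 neural crest and 3 neural tube genes. The largest and smallest log2 fold changes were ESAM at 0.38 and TEK at 0.08 for endothelium, KLF1 at 1.44 and LMO2 at 0.02 for blood, TFAP2E and MITF, at 0.02, for neural crest, and SOX1 at 0.65 and NEUROG2 at -0.47 for the neural tube. KLF1, a red blood cell factor, was at 4.08 CPM in forelimb replicate 1, at 0.351 to 0.990 CPM in the other forelimb libraries and at 0.0213 to 1.17 CPM in the hindlimb libraries, and it was higher in forelimb in all 5 pairs. The endothelial markers summed to 38.8 to 64.8 CPM in forelimb libraries and 28.5 to 62.5 CPM in hindlimb libraries. Hindlimb replicate 4 had the lowest of these sums, and every other hindlimb sum lay within the forelimb range.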

How the data were processed

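The deposited count tables give unnormalised read counts by gene identifier, 1 library to a table. The submitters' processing notes name STAR and featureCounts, with FastQC and DESeq2; versions, genome build, annotation and strand setting are not given in the sources used here, so counts of overlapping genes and of close relatives carry an unmeasured uncertainty. Per the labels' protocols, a mirVana kit served for RNA and a stranded TruSeq mRNA kit for libraries. The authors' deposited comparison table also gave symbols, a mean signal, log2 fold changes, their errors, a score and p-values.

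Counts were compared with edgeR 4.0.16 in R 4.3.3 (quasi-likelihood, robust, TMM, minimum count 10 and minimum total 15), with replicate number as a block and adjustment over 15595 genes. DESeq2 1.42.0 and limma 3.58.1 voom were alternatives. Standard errors were taken from the fold change and its F statistic. On data simulated for this comparison with 15595 genes, the blocked fit recovered 38.6% of genes changed 1.5-fold and 97.1% of genes changed 2-fold, with 7 false calls among 162. The simulation gave every gene the same setting for variation and changed no gene with as few counts as SP9. Recovery of single markers was not simulated.

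Replicate numbers were taken to pair the libraries. Over 9747 genes, deviations of log2(CPM + 1) from the limb mean correlated at 0.47 to 0.76 between libraries of the same number and at -0.39 to 0.16 between libraries of different numbers. Pairing by number was asked for by the rule that defined this set of genes, and the labels use the same numbers in both limbs. The correlations come from the same libraries as the p-values, and no label states the pairing. The members and gene lists were chosen with earlier results of these data known. From each list the called genes and the genes with the largest and smallest fold change were named, along with the 5 genes nearest in profile; other genes were named after their values were seen. Some genes that this rule names are not reported here, although counts of genes include them.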

Additional observations from a re-analysis of the deposited data

Results flagged for a closer look

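Each marker's 5 libraries of a limb were checked for a highest or lowest value far from its nearest neighbour, in 18 sets of values, of which chance marks about 1 in 20. A single set was marked. Hindlimb replicate 4 held 13.5 CPM of SP6, and the remaining 4 hindlimb libraries held 7.34 to 8.22 CPM. The gap was 0.858 of the whole range, above Dixon's limit of 0.71 for 5 samples. Hindlimb replicate 4 was also the highest of all 10 libraries for TP63, CDH1, GRHL2 and ESRP1, and it had the fewest identifiers with a count. It also held the lowest value of all 10 libraries for 7 of 12 mesenchyme markers, whose part in this was not tested.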

How the results depend on the processing

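No marker was called under any of the 21 alternatives, although SP9 had no adjusted p under DESeq2. Without the block and with all libraries, only 0.199% of all tested genes were called. Over the 21 alternatives, 158 of 189 marker fold changes kept their direction and 31 changed sign, the largest of those being 0.23 in size on the log2 scale. The cause was not tested, although the fits that left out libraries hold fewer samples. Without the replicate block the log2 fold change of CDH1 was -0.00091. With 1 replicate number or 1 library left out, log2 fold changes ran from -0.081 to 0.23 for SP6, -0.047 to 0.68 for SP9, -0.043 to 0.12 for EPCAM, -0.13 to 0.18 for CDH1, -0.071 to 0.18 for GRHL2 and -0.23 to 0.25 for GRHL3. TP63, ESRP1 and TFAP2A stayed above 0 throughout, from 0.04 to 0.23, from 0.13 to 0.41 and from 0.15 to 0.40.

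The count of called genes was 208 with the block, 110 higher in forelimb and 98 higher in hindlimb. Without the replicate block it was 31 (16 and 15), of which 30 were shared. It was 697 with no filter on low counts (409 and 288) and 545 with DESeq2 (310 and 235). Leaving out a replicate number with the block, or a library without it, gave 19 to 330 calls, 8 to 207 higher in forelimb and 10 to 123 higher in hindlimb. Among the 8 called genes of the other lists none changed direction under the 21 alternatives, and all 8 lost their call in each of the 11 fits without the block. Treating the lists in this way, and leaving out numbers for the likeness order, was chosen after seeing the data.

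SP9 had the fewest counts of the markers, 13 to 83 per library, and the part of counting error in its spread was not tested.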
